A study of Prunus persica with 2 samples.

Results

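The genes described here are the annotated genes of peach (Prunus persica) whose transcripts were at least moderately abundant in a water-treated fruit wound and less abundant in a wound given a yeast. A gene was included when its value in the control library was 5 FPKM or more and log2(FPKM + 1) was lower by 1 or more in the treated library, written as a difference of -1 or less. FPKM is the number of sequenced fragments scaled for transcript length and library depth, and the 1 added before taking the logarithm is a pseudocount. These genes were thus chosen by their own measured values, the control level and the difference between both libraries. The rule took 152 genes out of 26873 annotated gene rows and 27806 gene rows in all. No 2 of the 152 shared the same pair of values, so each is its own row. Of 9738 annotated rows that reached the starting level, with identical pairs of values taken once, 1.56% were taken. Their levels and differences are therefore given as a description and nothing was tested.

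Both libraries were made from wound tissue of fruit kept in an incubator at 28 °C and 95% relative humidity, sampled on day 3. The control wounds had received 30 μL of sterilized water and the treated wounds 30 μL of a Pichia membranaefaciens suspension. There was 1 library per treatment, and how much fruit of one treatment differ among themselves is not known from these data. The labels give no cultivar, no number of fruit behind a library and no number of yeast cells.

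Pichia membranaefaciens is a yeast that is applied to harvested fruit because it limits rot by moulds. Antagonistic yeasts take up space and nutrients in a wound, and they can also set off defence responses of the fruit, which is called induced resistance. The series asked which resistance-related genes are expressed differently in wounds with the yeast. A lower transcript level in whole wound tissue can come from fewer cells of a type or from less RNA per cell, and these cannot be told apart in bulk samples.

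The files carry gene identifiers without names or products, and 0 of them could be found in the RefSeq table of peach genes. The genes are therefore given by identifier and place on the pseudomolecules Pp01 to Pp08, with positions counted from 1 on a genome build that the sources used here do not name, and no function is assigned to any of them. For the same reason the tissue label could not be checked against marker genes, and no sequence is shown. The control library corresponded to about 26792600 fragments and the treated library to about 25121300. At the median transcript length of the 152 genes (1613 bases), the starting level of 5 FPKM in the control rests on about 216 fragments.

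By the rule all 152 genes were less abundant with the yeast, and few of them were close to absent. Their control values ran from 5.09 to 485 FPKM with a median of 16.8, and their treated values from 0.00954 to 202 FPKM with a median of 4.25. The median gene kept 31.3% of its control value, and the middle of the list lay between 17.5% and 41.2% (quartiles). None of the genes (0) was listed at 0 in the treated library, 13 were under 1 FPKM there and 67 still had 5 FPKM or more. The difference ran from -3.95 to -1.001 with a median of -1.45. Over all 9738 rows at the starting level the median difference was -0.00071, and the central 90% lay between -0.54 and 0.45.

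Summed over the 152 genes, the control library held 5778 FPKM and the treated library 1873 FPKM. These sums were 1.001% and 0.325% of all FPKM of the gene table. The 10 genes with the highest control values made up 40.4% of the control sum. By rank among annotated genes, where 1 is the most abundant, the median member stood at 5280 in the control and at 10497 in the treated library. The number within the 1000 most abundant annotated genes was 12 with water and 3 with the yeast.

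**Figure D1:**
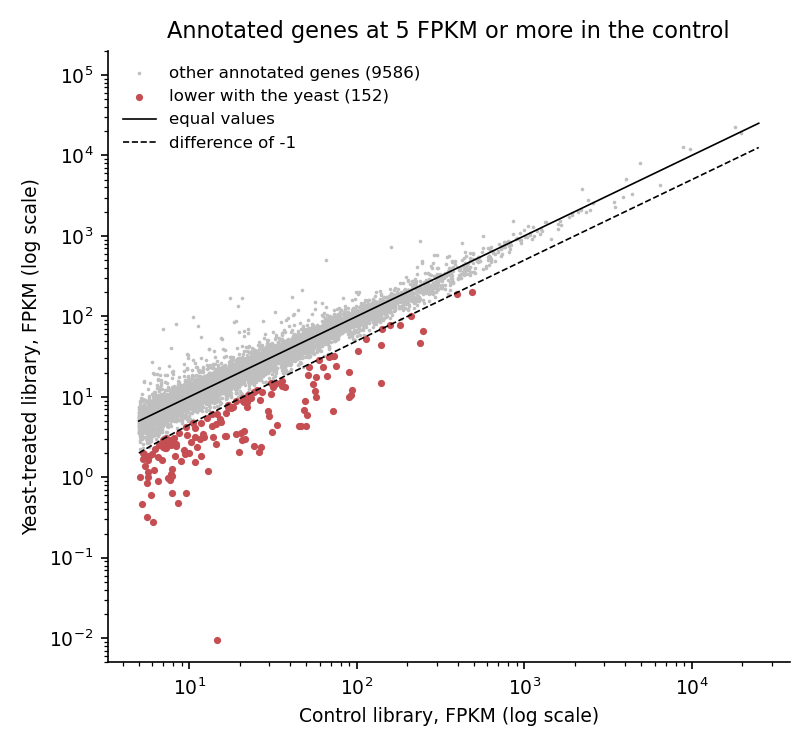
Treated against control FPKM, both on log axes, for annotated genes with 5 FPKM or more in the control; each point is 1 gene, red points are the 152 lower genes, the solid line marks equal values and the dashed line a difference of -1. The red points reach from 5.09 to 485 FPKM on the control axis, and a single point near 0.00954 FPKM on the treated axis lies far below the others.

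The lower genes came from every range of starting level. Of rows at 5 to 10 FPKM in the control, 51 of 2527 (2.02%) were lower, compared with 33 of 2678 (1.23%) at 10 to 20 FPKM and 37 of 2573 (1.44%) at 20 to 50 FPKM. At 50 to 100 FPKM there were 19 of 1039 (1.83%), and at 100 FPKM or more 12 of 921 (1.30%). The share did not move in one direction along the scale. For comparison, the mirror rule, with a difference of 1 or more and 5 FPKM or more in the treated library, took 143 of 9747 rows (1.47%). A difference of 2 or more in size was reached by 45 lower and 29 higher genes, and one of 3 or more by 10 lower and 8 higher genes.

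Genes next to the thresholds show how little separates the list from its surroundings. Just inside the difference threshold were Prupe.7G194300, with 140.7 FPKM with water and 69.8 with the yeast, Prupe.5G152400 with 16.9 and 7.94 FPKM, and Prupe.1G223400 with 25.4 and 12.1 FPKM. Just outside it were Prupe.8G150900 with 183 and 91.4 FPKM, Prupe.1G233100 with 5.75 and 2.40 FPKM, and Prupe.3G193300 with 10.8 and 4.96 FPKM. Just inside the starting level were Prupe.8G137700 with 5.09 and 0.998 FPKM, Prupe.3G291000 with 5.19 and 0.465 FPKM, and Prupe.5G211000 with 5.27 and 1.71 FPKM. Just below it were Prupe.1G038000 with 4.98 and 0.791 FPKM, Prupe.6G345600 with 4.82 and 1.66 FPKM, and Prupe.5G244100 with 4.97 FPKM and a listed 0. In all, 74 annotated rows met the difference but had less than 5 FPKM in the control.

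The steepest reduction was at Prupe.1G485100, which has 2 exons and lies on Pp01 (minus strand, 40405249 to 40409506). It had 14.7 FPKM with water and 0.00954 FPKM with the yeast, so that it was listed as nearly absent with the yeast. The longer of its 2 annotated transcripts, of 3587 bases, had 15.1 FPKM with water and a listed 0 with the yeast. About 1469 fragments stood behind the control value and about 1 behind the treated value, a ratio of 1377 with a 95% counting interval from 247 to 54439.6. The intervals here and below are exact (Clopper-Pearson), cover counting error only and contain no difference between fruit. A listed 0 can also be a failed estimate, which the interval does not cover.

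The other 9 of the 10 genes with the lowest differences had between 26.1 and 139 FPKM in the control, and all 9 kept between 7.98% and 11.3% of it. Among the 10 there were 6 genes with a single exon, compared with 26 of all 152 and 736 of 9738 rows at the starting level. Prupe.3G306600, a single exon of 1545 bases on the plus strand of Pp03 from 26802546 to 26804090, had 72.6 FPKM with water and 6.71 with the yeast. Its ratio by fragments was 10.8 (interval 9.54 to 12.3). Prupe.6G021100, a single exon of 754 bases on the plus strand of Pp06 from 1715348 to 1716101, had 49.9 and 4.35 FPKM, a ratio of 11.5 (interval 9.21 to 14.6). Both genes were named for their low difference and stand next to each other in that order. The similar size of their reductions therefore follows from the choice.

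Prupe.3G202500, with 4 exons on the minus strand of Pp03 from 21042951 to 21044806, belonged both to the steepest and to the most abundant genes. It had 139 FPKM with water and 14.7 FPKM with the yeast, a ratio of 9.47 (interval 8.55 to 10.5). In rank it moved from 633 to 5856 among annotated genes. Prupe.4G054300, a single exon of 452 bases on Pp04 from 2619509 to 2619960, had 90.4 and 9.86 FPKM. Prupe.7G028400, a single exon of 312 bases on Pp07 from 5277134 to 5277445, had 92.3 and 10.4 FPKM. Prupe.8G250000, with 2 exons on Pp08 from 21554579 to 21555422, had 26.9 and 2.36 FPKM, a ratio of 11.5 (interval 8.41 to 16.1). The remaining members of the first 10, Prupe.2G232000, Prupe.2G232200 and Prupe.1G372800, are described with the neighbouring genes and with the origin of the values.

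**Figure D2:**
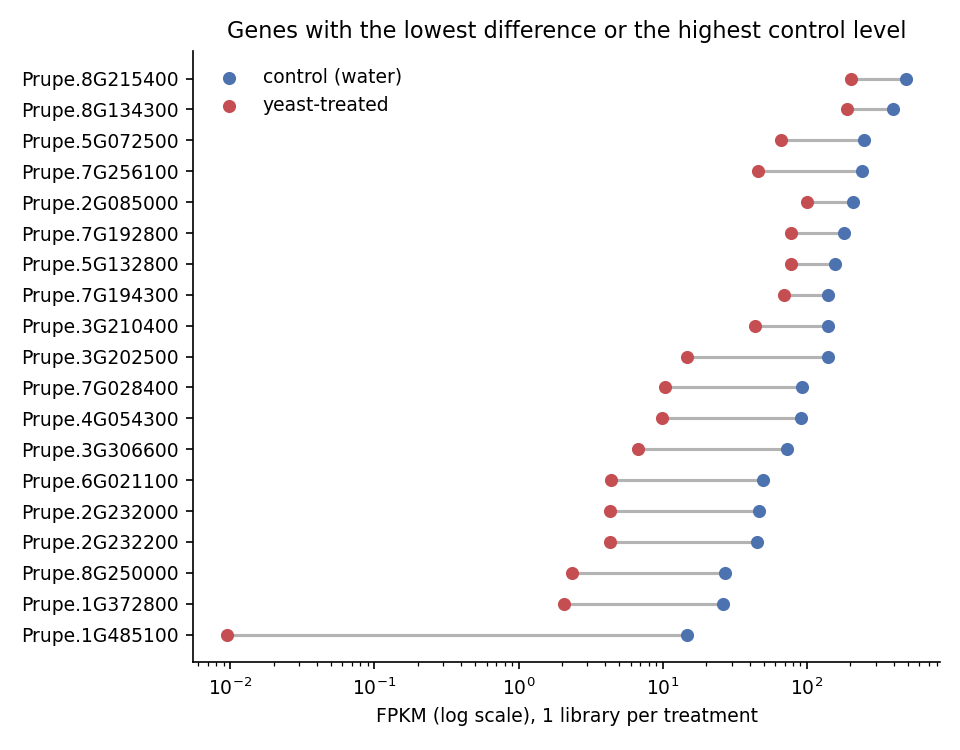
FPKM on a log axis for the 10 lower genes with the lowest differences and the 10 with the highest control values (19 genes, since Prupe.3G202500 is in both); blue points are the control library, red points the treated library, and a grey line joins the values of 1 gene. The genes at the top keep 10.6% to 49.6% of their control value, and Prupe.1G485100 at the bottom is the only one drawn below 1 FPKM in the treated library.

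The most abundant genes of the list were reduced less steeply. Prupe.8G215400, with 5 exons on the minus strand of Pp08 from 19776926 to 19780643, led with 485 FPKM in the control and had 202 FPKM in the treated library, which is 41.7% of the control. Its ratio of 2.40 rested on about 31062 and 12153 fragments (interval 2.35 to 2.45). It moved from rank 114 to rank 353. Prupe.8G134300, with 5 exons on the minus strand of Pp08 from 15528016 to 15530885, had 395 and 190.4 FPKM, and Prupe.2G085000, a single exon of 2333 bases on Pp02 from 13467127 to 13469459, had 209.8 and 100.9 FPKM. They kept 48.2% and 48.1% of the control value, and so lay close to the threshold.

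Among the 10 most abundant, Prupe.7G256100 and Prupe.5G072500 combined a high start with a larger reduction. Prupe.7G256100, on the minus strand of Pp07 from 21459369 to 21461207, had 240.2 FPKM with water and 46.1 with the yeast. It went from rank 315 in the control to rank 2133 in the treated library, with a ratio of 5.21 by fragments (interval 4.90 to 5.53). Prupe.5G072500, on the plus strand of Pp05 from 8722019 to 8725271, had 249.5 and 66.0 FPKM. It went from rank 301 to rank 1498 with a ratio of 3.78 (interval 3.60 to 3.97). Both of its annotated transcripts were lower, the main one with 223 FPKM with water and 59.3 with the yeast and the minor one with 26.6 and 6.81 FPKM. Prupe.7G192800 had 181 and 77.6 FPKM, and Prupe.5G132800, with 14 exons on Pp05 from 12744233 to 12749648, had 157 and 77.5 FPKM. Of the 12 genes with 100 FPKM or more in the control, 9 had 4 to 9 exons and 1 was a single-exon gene. None of the 12 (0) had 15 exons or more. The 9 include Prupe.3G210400, whose value came from another locus, as described below. Over all 9738 rows at 5 FPKM or more in the control, 4359 had 4 to 9 exons, 736 had 1 and 1023 had 15 or more. The same split was not made for rows at 100 FPKM or more, so the counts of the 12 are a description.

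The lower genes were spread unevenly over exon number, a property the rule did not use. Single-exon genes were lower at 26 of 736 rows (3.53%), genes of 2 to 3 exons at 29 of 1941 (1.49%) and genes of 4 to 9 exons at 52 of 4359 (1.19%). Among genes of 10 to 14 exons the count was 15 of 1679 (0.893%), and among those of 15 or more it was 30 of 1023 (2.93%). By the gene values, the share was therefore highest at both ends of the scale. With annotated transcripts alone 198 genes were lower, and the counts were 29, 31, 73, 29 and 36 in the same order of classes. The count at 10 to 14 exons was thus 29 in place of 15. The rows at the starting level were not counted by class for that setting. Whether the share was still lowest at 10 to 14 exons there is not known. By the mirror rule, higher genes made up 3.78% of single-exon rows, 3.45% of rows with 2 to 3 exons and 0.1% (1 of 997) of rows with 15 or more. The median difference of all rows with 15 or more exons was 0.09, so that class as a whole was not lower.

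**Figure D3:**
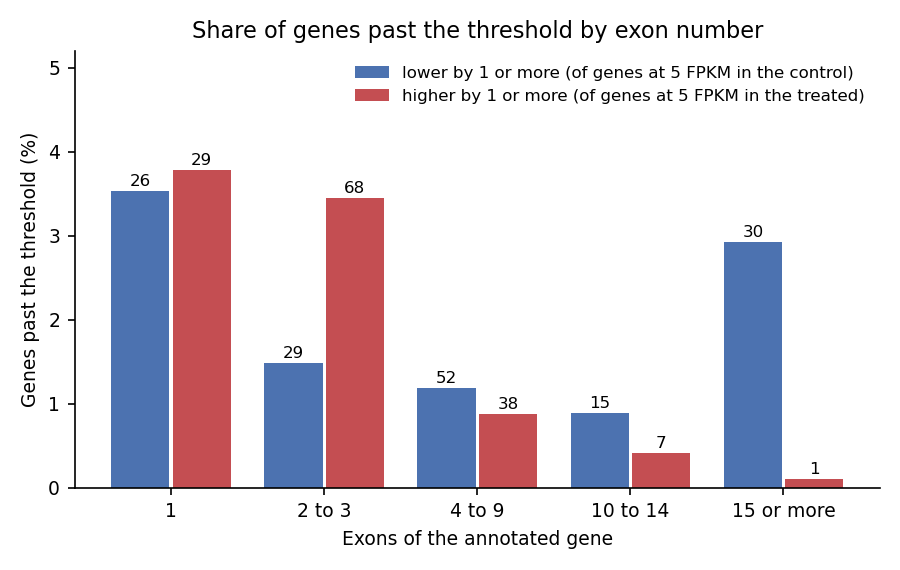
Percent of annotated genes past the threshold in each class of exon number, with the number of genes above each bar; blue bars are genes lower by 1 or more among those with 5 FPKM in the control, and red bars genes higher by 1 or more among those with 5 FPKM in the treated library. The blue bars are tallest at 1 exon (3.53%) and at 15 or more (2.93%), while the red bar at 15 or more holds 1 gene.

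Levels and differences within the exon classes are a description, since the rule used them. The 26 single-exon genes had a median of 31.5 FPKM with water and 7.61 FPKM with the yeast, and their shares differed with the starting level: 19 of 370 rows (5.14%) at 20 FPKM or more and 7 of 366 (1.91%) below it. Over all single-exon rows at the starting level the median control value was 20.1 FPKM. The 30 genes with 15 or more exons had medians of 10.98 and 2.93 FPKM, beside a control median of 16.5 FPKM over all rows of that class, with 11 of 414 rows (2.66%) at 20 FPKM or more and 19 of 609 (3.12%) below it. Their median difference was -1.35, compared with -1.58 for the single-exon genes and -1.96 for the 29 genes of 2 to 3 exons. The differences ran from -3.14 to -1.01 with 15 or more exons and from -3.26 to -1.04 with 1. The -3.14 is that of Prupe.1G372800, whose value came from a new transcript of another locus, as described below. The next lowest in that class was -2.21, at Prupe.7G103600. Of the 45 genes with a difference of -2 or less, 11 had 1 exon, 13 had 2 to 3 and 4 had 15 or more. Of the 14 that kept less than 10% of the control value, 5 had 1 exon, 7 had 2 to 3, and the other 2 had 15 or more. Prupe.1G372800 is among the genes with 15 or more exons in both counts.

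Within the many-exon class the share was uneven. With limits chosen after the values were seen, 21 of 418 rows with 16 to 19 exons (5.02%) and 5 of 98 with 28 or more (5.10%) were lower. At exactly 15 exons it was 2 of 171 (1.17%), and at 20 to 27 exons 2 of 336 (0.595%). By the mirror rule 0 of 404 rows with 16 to 19 exons, 0 of 330 with 20 to 27 and 0 of 93 with 28 or more were higher. In the 30 lower genes with 15 or more exons the longest transcripts had a median of 2922.5 bases and the genes a median span of 6151.5 bases, compared with 3273 and 8419 bases over all rows with 15 or more exons. In 3 of the 30, Prupe.1G372800, Prupe.1G489800 and Prupe.3G288900, the value or the reduction came from new transcripts, as described below. The most abundant of the 30 was Prupe.6G159900, with 17 exons on the minus strand of Pp06 from 14675837 to 14682272, which had 75.1 FPKM with water and 23.9 with the yeast. Prupe.7G252700, with 18 exons on Pp07 from 21313224 to 21318854, had 62.5 and 23.4 FPKM, and Prupe.8G088400, with 18 exons on Pp08 from 12149949 to 12155795, had 37.1 and 13.2 FPKM. The last 3 genes were chosen for their level after the values were seen.

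The gene with the most exons, Prupe.7G131600, has 32 on the minus strand of Pp07 from 15063988 to 15075018. It had 18.3 FPKM with water and 7.45 FPKM with the yeast, a ratio of 2.46 (interval 2.29 to 2.66). Prupe.3G267300, with 29 exons on Pp03 from 24992502 to 25002197, had 6.60 and 2.55 FPKM. The longest transcript of the list, of 6095 bases, belongs to Prupe.5G009400, which has 28 exons on Pp05 from 973835 to 986555 and had 7.13 and 2.30 FPKM. All of these kept between 32.3% and 40.6% of the control value.

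At the short end, genes whose longest annotated transcript has 500 bases or less were lower at 8 of 177 rows (4.52%), while 1 of 173 was higher by the mirror rule. In genes over 3000 bases the lower share was 21 of 1597 (1.31%). The 8 short genes had control values from 6.48 to 92.3 FPKM and treated values from 0.484 to 18.0 FPKM. One of them, Prupe.3G027800, took its value from a new transcript, as described below. The shortest, Prupe.5G154200, is a single exon of 234 bases on Pp05 from 13839329 to 13839562. It had 6.48 and 1.81 FPKM, on about 41 and 11 fragments, and its ratio of 3.49 had the wide interval of 1.76 to 7.54. Prupe.6G016200, of 455 bases on Pp06 from 1164480 to 1164934, had 33.3 and 4.43 FPKM. The FPKM of very short transcripts depends on the length correction more than that of long ones.

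By place, the lower genes lay on all 8 pseudomolecules, from 11 of 1133 rows (0.971%) on Pp02 to 20 of 931 (2.15%) on Pp05. On Pp07 there were 21 of 1057 (1.99%), beside 9 higher genes of 1053 (0.855%). On Pp05 there were 11 higher genes of 925 (1.19%). The strands were nearly even, with 72 genes on the plus and 80 on the minus strand. Genes with 1 annotated transcript were lower at 100 of 5130 rows (1.95%), and genes with 4 or more at 9 of 1369 (0.657%).

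The lower genes mostly stood alone along the chromosomes. Among annotated genes that reached 1 FPKM in either library, the direct neighbours on both sides of the 152 genes gave 304 values, with a median difference of -0.01. Of these neighbours 11 (3.62%) were lower by 1 or more, compared with 1.65% around all rows at the starting level and 1.58% of annotated rows at 1 FPKM or more in either library. The count takes 6 of the 11 from 3 pairs in which both neighbours were on the list. The other 5 neighbours had between 1.31 and 3.91 FPKM in the control, below the starting level of the rule. A reduction of 0.5 or more was seen at 35 neighbours (11.5%), compared with 6.46% around all rows. Shares above the background were also seen further out, with 9.87% at 3 places to the left and 9.93% at 4 places to the right. In the other direction, 2 neighbours (0.658%) were higher by 1 or more, compared with 1.45% of annotated rows at 1 FPKM or more in either library. Prupe.6G229500, beside Prupe.6G229300, had 0.610 FPKM with water and 4.76 with the yeast, and Prupe.2G266100, beside Prupe.2G266000, had 5.39 and 15.3 FPKM.

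**Figure D4:**
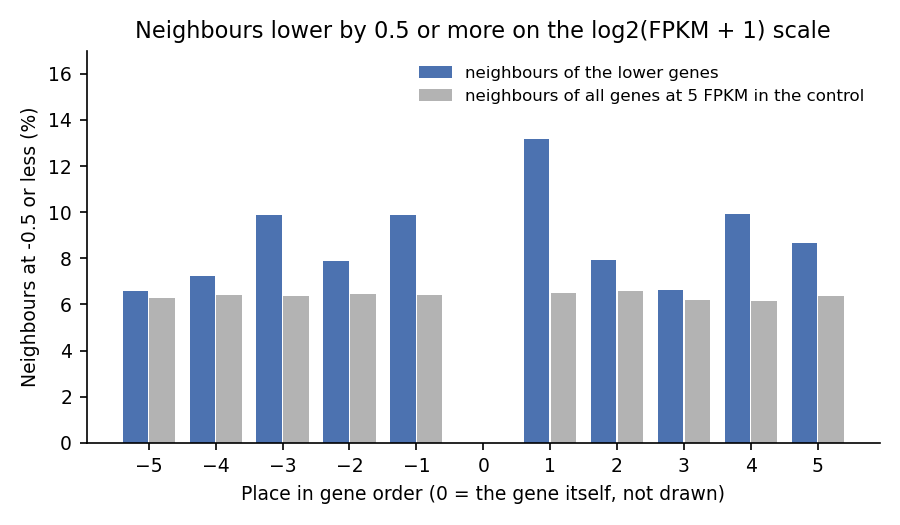
Percent of genes with a difference of -0.5 or less at each place in gene order around a gene at 0, counted among annotated genes with 1 FPKM or more in either library; blue bars are neighbours of the 152 lower genes and grey bars neighbours of all rows at 5 FPKM or more in the control. The blue bars next to the gene reach 9.87% on the left and 13.2% on the right, blue bars further out lie between 6.58% and 9.93%, and the grey bars stay between 6.16% and 6.57%.

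The 3 neighbouring pairs were each on 1 strand, with 1 gene under 1 FPKM between them. On Pp02, Prupe.2G232000 and Prupe.2G232200 are single exons of 908 and 642 bases, with 8824 bases between them. The first had 46.5 FPKM with water and 4.31 with the yeast, the second 44.9 and 4.33 FPKM, so their levels were nearly equal in both libraries. The next genes on either side, Prupe.2G231900 with 67.95 and 97.7 FPKM and Prupe.2G232300 with 128 and 138 FPKM, had higher values with the yeast. One place further out, Prupe.2G231800 with 1.63 and 0.673 FPKM and Prupe.2G232400 with 11.7 and 10.4 FPKM had lower ones. On Pp03, Prupe.3G153100 had 21.2 and 8.51 FPKM and Prupe.3G153300 had 30.6 and 10.9 FPKM. Both are single exons on the minus strand, of 753 and 789 bases, with 10891 bases between them. The single-exon genes Prupe.3G153200 and Prupe.3G153400 lie between and beside them on the plus strand, with 0.416 and 0.0364 FPKM and with 0.475 and 0.0434 FPKM.

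On Pp07, Prupe.7G192600 had 22.0 FPKM with water and 8.72 with the yeast, and Prupe.7G192800, 6829 bases further on the same strand, had 181 and 77.6 FPKM. They differ in structure, with 1 and 4 exons, and had differences of -1.24 and -1.21. The genes on either side of this pair, Prupe.7G192500 with 13.3 and 12.1 FPKM and Prupe.7G192900 with 13.0 and 10.4 FPKM, were nearly level. Genes that are similar copies can share reads, and whether any of these pairs are copies was not tested, because no sequence was used here.

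Within 100 kb of each other lay 18 pairs of listed genes, of which 10 were on the same strand and 4 consisted of single-exon genes. The 143 higher genes of the mirror rule formed 27 such pairs, 16 of them on the same strand and 4 of single-exon genes. The lower list thus held fewer such pairs than the higher one. The same count was not made for other rows at the starting level, so whether 18 is many or few is not known here. On Pp06, Prupe.6G021100 and Prupe.6G021700 lie 36.2 kb apart on opposite strands, with 1 gene at 1 FPKM or more between them. The second had 19.8 FPKM with water and 2.05 with the yeast, and their differences were -3.25 and -2.77. On Pp04, Prupe.4G029500 with 113 and 51.8 FPKM lay between Prupe.4G029200 with 8.39 and 2.56 FPKM and Prupe.4G030300 with 94.1 and 12.3 FPKM, at distances of 15.2 and 34.96 kb. These genes have 17, 2 and 7 exons in order of position.

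Neighbours that start close by in the opposite direction had similar levels in both libraries, as they mostly did around all rows. Such a head-to-head partner within 1 kb was present at 15 of the 152 genes (9.87%), compared with 13.9% of all rows at the starting level. Of the 15 partners, 12 reached 1 FPKM in either library. Their differences ran from -0.45 to 0.28 with a median of 0.04, and none (0) was lower by 1 or more. Around all rows at the starting level, 14 of 945 such partners were lower by 1 or more, and the median difference was -0.02. With 12 partners, a count of 0 is not set apart from that share. Prupe.1G042300 had 7.74 FPKM with water and 1.11 with the yeast, while its partner Prupe.1G042200 had 60.0 and 60.2 FPKM. Prupe.1G350700 had 31.3 and 3.61 FPKM, while Prupe.1G350600 had 11.2 and 12.3 FPKM.

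The gene value usually rested on the annotated transcripts of the same gene, with exceptions that change what the value stands for. In 146 of the 152 genes, the gene value matched the transcripts that carry the gene's name, added over 1 length that was the same in both libraries (relative tolerance 0.001). Among these, Prupe.2G085000 passed only through the tolerance. Its value was that of its annotated transcript, without a new one of the same name with 5.02 and 1.95 FPKM. In Prupe.1G144800, Prupe.5G132800, Prupe.4G288100 and Prupe.6G182000 it equalled the annotated transcripts without a new one that carries the same name, and in the other two, Prupe.3G210400 and Prupe.1G372800, it was that of another locus. The annotated transcripts alone gave a difference of -1 or less in 146 genes and a smaller one in 6. In 3 genes the annotated transcripts were listed at 0 in both libraries.

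The value of Prupe.3G210400, 139 FPKM with water and 43.5 with the yeast, did not come from that gene. Its own annotated transcript was listed at 0 in both libraries. The value equalled that of a newly assembled locus of 2 transcripts on the plus strand, added over 675 bases in both libraries. One of these transcripts has the span 21548031 to 21578745 on Pp03 and the name of Prupe.3G210400, and had 63.6 and 22.4 FPKM. The other, from 21548694 to 21549418, carries the name of Prupe.3G209900 and had 126 and 36.7 FPKM. It lies within the span of Prupe.3G209900 on the opposite strand, a gene with 9699 FPKM with water and 12038 FPKM with the yeast. A new minus-strand transcript of 5 exons, named to Prupe.3G209900, reaches from 21547735 to 21578744 and so covers nearly the same span as the longer plus-strand one. It had 2895 FPKM with water and a listed 0 with the yeast. The sources used here do not say whether the libraries kept strand, so reads of the strands may not have been separated.

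For Prupe.1G372800, with 19 exons on Pp01 (minus strand, 33921169 to 33927476), the gene value was that of a new transcript. This transcript has 2 exons and 210 bases over the span 33920590 to 33940869, and had 26.1 FPKM with water and 2.08 with the yeast. The annotated transcript had 4.10 and 1.38 FPKM, a difference of -1.10, and its control value lies below the starting level of the rule. Prupe.3G027800, with 2 exons on Pp03, had 8.56 and 0.484 FPKM from a new transcript of 203 bases, based on 47 and 2 fragments; the ratio was 22.0 (interval 5.77 to 187). Its annotated transcript was listed at 0 in both.

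In other genes a new transcript of the same locus carried the value or the reduction. Prupe.5G240400 had 5.67 and 1.02 FPKM, nearly all from a new transcript of 4 exons, while its annotated transcript had 0.0168 and 0.00867 FPKM. Prupe.1G489800 had 6.97 and 2.87 FPKM from new transcripts of 17 and 16 exons, with its annotated transcript of 18 exons listed at 0. In Prupe.6G210900, on Pp06 from 21930951 to 21936474, the new transcript had 10.5 and 2.05 FPKM and the annotated one 8.39 and 6.21 FPKM, a difference of -0.38. In Prupe.3G288900, on Pp03 from 25985333 to 25993869, the new transcript had 3.79 and 0.860 FPKM and the annotated one 3.38 and 1.86 FPKM, a difference of -0.62. Only the new transcript was lower by 1 or more in either gene. New transcripts of any kind were present at 13 of the 152 genes (8.55%), compared with 16.2% of all rows at the starting level.

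**Figure D5:**
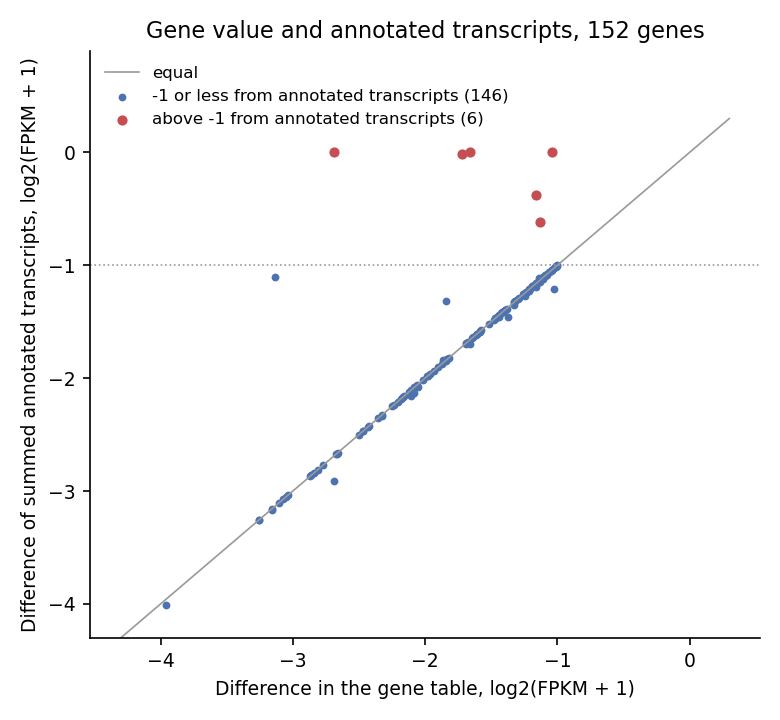
Difference of log2(FPKM + 1), treated minus control, from the summed annotated transcripts (vertical axis) against the difference in the gene table (horizontal axis) for the 152 lower genes; each point is 1 gene, the grey line marks equal values and the dotted line -1. Most points lie on the line, and the 6 red points above -1 include 3 genes at 0 whose annotated transcripts were listed at 0 in both libraries.

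The gene value is a sum over transcripts, so where a gene had several of them the rule itself favoured lower values in each. The counts are given as a description. Of the 60 genes with 2 or more transcripts, 33 had at least 2 that reached 1 FPKM in either library, and in 27 of these every such transcript was below its control value. Over the 33 genes, 67 of 76 transcripts were below and 9 above. The leading transcript of Prupe.8G215400 had 457 FPKM with water and 192 with the yeast, and the minor one 28.4 and 10.4 FPKM. Another leading transcript in the treated library was seen in 11 of the 60 genes (18.3%), compared with 12.2% of 5424 rows at the starting level. Among the 21 with 5 FPKM or more left it was 2 (9.52%).

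In the other 6 genes at least 1 transcript was above its control value. In Prupe.5G132800 this was only the opposite-strand one, with 12.6 FPKM with water and 18.4 with the yeast. Prupe.4G288100, on the minus strand of Pp04 from 25295055 to 25301208, has 11 annotated transcripts, and the leading one of 4587 bases had 13.6 FPKM with water and a listed 0 with the yeast. A shorter one of 2120 bases had 0.137 and 4.10 FPKM. The gene value went from 13.9 to 3.16 FPKM. It leaves out a new opposite-strand transcript of the same name, which had 25.1 FPKM with water and 47.6 with the yeast. Prupe.8G024000, on Pp08 from 2180492 to 2186573, had a transcript of 5163 bases with 6.80 and 0.376 FPKM and one of 4996 bases at a listed 0 and 1.41 FPKM. In Prupe.5G110700, on the minus strand of Pp05, the transcript of 3671 bases had 13.0 and 0.912 FPKM, and the one of 3915 bases was listed at 0 in the control and had 3.12 FPKM in the treated library. The division of reads among overlapping transcripts is the authors' estimate, and a listed 0 can be a failed estimate.

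Transcripts listed on the opposite strand, without those that carry the gene's own name, overlapped 17 of the 152 genes (11.2%). The same count gave 11.1% of all rows at the starting level. Among those left out were new transcripts at Prupe.4G288100 (25.1 FPKM with water and 47.6 with the yeast), Prupe.5G132800 (12.6 and 18.4) and Prupe.2G085000 (5.02 and 1.95). The one at Prupe.4G288100 exceeded the 13.9 FPKM of its gene in the control. In 5 of the 152 (3.29%) the counted opposite transcripts summed to more FPKM in the control than the gene, compared with 2.17% of all rows. Prupe.1G031300 had 11.6 and 3.02 FPKM beside 116 and 128 FPKM on the other strand. Prupe.1G380600, with 3 exons on Pp01, had 48.8 and 6.80 FPKM beside 79.6 and 80.2 FPKM. Prupe.7G180100 had 5.62 and 0.319 FPKM beside 5.71 and 6.89 FPKM. In these 3 genes the opposite transcripts were level or higher with the yeast. Prupe.3G269300 had 7.69 and 0.930 FPKM beside 13.6 and 8.61 FPKM, so that here the opposite transcript was lower too. The remaining gene of the 5 is Prupe.3G210400, whose opposite transcript had 2895 FPKM with water and a listed 0 with the yeast.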

How the data were processed

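RNA from wound tissue was sequenced in 2 libraries, 1 per treatment. HISAT2 and HTSeq 0.6.1 are named in the submitters' processing notes, without a role; genome build, annotation, strandedness and assembler: not given in the sources used here. FPKM per gene and per transcript were deposited by the authors, as was coverage, the mean read depth over a transcript. Coverage divided by FPKM was 8.04 (control) and 7.54 (treated), and the commonest small product of coverage and length was 300 bases, taken as 1 fragment; this gave the fragment numbers and the 95% exact intervals. The members and lists were chosen with earlier results of these data known. Named genes are those with the 10 lowest differences, the 10 highest control values, the 3 nearest on each side of either threshold, neighbouring members, and extremes of exon number and length; others named were chosen after their values were seen. Exon number and length are the largest among annotated transcripts. Product lists and markers could not be applied. The difference threshold alone, without the starting level or the merging of identical pairs, was tried on simulated fragment counts. These held counting error only and no difference between fruit, so they do not bear on that. Python 3.11.15, pandas 2.3.3 and scipy 1.17.1 were used. No p-value is given.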

Additional observations from a re-analysis of the deposited data

How the results depend on the processing

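With a pseudocount of 5 the rule took 78 genes, with a starting level of 20 FPKM 68, and with a difference of -2 or less 45; each changes the rule by construction. Under the 9 other alternatives for the count it stayed between 151 and 226, within 1.5 times of 152. These were no filter, a starting level of 1 FPKM, a pseudocount of 0.1, 3 scalings, transcript sums, annotated transcripts alone and every row counted. No filter and a starting level of 1 FPKM are the same rule, since a difference of -1 needs at least 1 FPKM in the control. Both took 226 genes. Counting every row gave 152 again because no 2 of the genes shared a pair of values. Annotated transcripts alone gave 198 genes, which shared 145 with the list, and 29 genes of 10 to 14 exons in place of 15. The median difference of -1.45 was -1.66 with a pseudocount of 0.1, -1.01 with one of 5, -1.46 under upper quartile scaling, -1.47 under trimmed mean scaling, -1.46 with all transcripts and -1.42 with annotated ones. The median remaining value of 31.3% was 31.2%, 30.9%, 31.4%, 31.6% and 31.9% under the upper quartile, trimmed mean and equal sum scalings and the same transcript sums. Of 3 neighbouring pairs, 0 were left when genes under 1 FPKM counted as neighbours. None (0) of 224 alternative values of the 32 named genes turned in direction. For most settings this was fixed beforehand, because the genes were chosen for a reduction. A pseudocount cannot change the sign, and the scalings were only 0.999 to 1.015 (treated over control). With annotated transcripts alone the difference of Prupe.3G210400 was 0. Prupe.4G288100, described above, was not among the 32 and did turn. With all transcripts that carry its name it had 42.7 FPKM with water and 54.0 with the yeast, a difference of 0.33. With all transcripts, 149 of the 152 genes kept a difference of -1 or less and 3 did not. No paired analysis was possible because there was 1 library per treatment; leaving one out was impossible too. Depth limits the lowest values: 10 genes had fewer than 30 fragments in the treated library, and none (0) in the control.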
